A study of Mus musculus with 2 samples.

Results

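Fkbp5, Tsc22d3, Zbtb16, Sgk1, Pdk4, Cebpd, Errfi1, Mt1 and Mt2 are 9 genes that glucocorticoids are known to induce. They were chosen by gene symbol from the 32285 genes of the annotation, with earlier results of these data known. Their transcripts were followed through the cell classes of the mouse uterus in 2 droplet libraries. One library, DOX, came from mice treated with 3 mg/kg of doxorubicin, a DNA-damaging anthracycline used against cancer. The other, DOX plus AMH, came from mice given the same dose of doxorubicin with 0.75 mg/kg of anti-Müllerian hormone, a ligand of the TGF-beta family. All animals had received doxorubicin, and no untreated library was used here. Each group is a single pool of the uteri of 5 animals, collected 4 h after dosing, so the spread between animals is not known and no difference was tested. The series text gives 2 weekly doses to mice of postnatal day 25 for bulk sequencing. Whether these pools had the same schedule is not given in the sources used here. The labels give no glucocorticoid treatment and no hormone levels.

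Glucocorticoids enter the cell and bind the glucocorticoid receptor, Nr3c1, which is held ready by HSP90 and its co-chaperones. The bound receptor moves to the nucleus and binds DNA at glucocorticoid response elements, inverted repeats of a short hexamer, and genes next to such elements are switched on within hours. The products limit the signal itself, dampen inflammation and shift cell metabolism. None of the 9 genes answers to glucocorticoids alone. The metallothioneins also respond to zinc and oxidative stress through the metal response element and its factor MTF1, Sgk1 to osmotic stress and other steroids, Errfi1 to growth factors, Cebpd to cytokines and Pdk4 to fasting.

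The promoter sequences show which of these elements stand next to the genes' starts. RefSeq promoter windows of build GRCm38.p6, the mm10 assembly of the matrices, were found for 7 of the 9 genes, 15 windows in all, and the 250 bases before each start were searched on both strands. Zbtb16 and Cebpd were not among them. Searched were the core of the glucocorticoid response element, ACANNNTGT, the hexamer of its arm, TGTTCT, which can overlap that core, and the metal response core, TGCGCNC or TGCACNC. Sgk1, Mt1 and Mt2 are shown because they hold the core, most hexamers or most metal response cores among these windows, with all matches in capitals, 5′ to 3′ on the gene's strand:

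Sgk1 (the fifth listed start, chr10:21993640-21993889, plus strand): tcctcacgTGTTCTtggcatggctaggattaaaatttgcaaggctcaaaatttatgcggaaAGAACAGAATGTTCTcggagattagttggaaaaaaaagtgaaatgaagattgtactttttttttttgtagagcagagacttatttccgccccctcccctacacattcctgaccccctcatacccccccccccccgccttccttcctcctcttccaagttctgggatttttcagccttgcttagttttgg

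Mt1 (chr8:94178839-94179088, plus strand): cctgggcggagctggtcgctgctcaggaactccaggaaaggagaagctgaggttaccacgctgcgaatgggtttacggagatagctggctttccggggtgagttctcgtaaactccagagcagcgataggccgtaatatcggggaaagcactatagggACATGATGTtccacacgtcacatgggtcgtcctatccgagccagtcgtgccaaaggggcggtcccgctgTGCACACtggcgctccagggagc

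Mt2 (chr8:94172368-94172617, plus strand): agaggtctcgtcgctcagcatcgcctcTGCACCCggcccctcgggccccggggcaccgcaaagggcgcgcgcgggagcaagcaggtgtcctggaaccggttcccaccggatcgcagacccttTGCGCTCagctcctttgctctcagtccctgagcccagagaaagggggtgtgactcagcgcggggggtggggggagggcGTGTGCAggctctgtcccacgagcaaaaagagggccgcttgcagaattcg

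The Sgk1 window lies before an internal start of the gene (GENCODE vM21, chr10:21882184-21999903). It holds 3 hexamers, and a pair of them faces each other around the core as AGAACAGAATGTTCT, at 189 to 175 bases before the start. Of all 32851 windows of the same length, 5.84% held at least 1 core, 16.1% at least 1 hexamer and 0.189% at least 3 hexamers, and 3 windows held the whole element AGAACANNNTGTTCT, a motif added after the core had been seen. The Mt1 window, beside the gene at chr8:94179082-94180327, holds 1 receptor core, ACATGATGT, at 92 to 84 bases before the listed start, and 1 metal response core, TGCACAC. The Mt2 window, beside the gene at chr8:94172664-94173568, holds 3 metal response cores and no receptor core. At least 1 metal response core stood in 21.4% of all windows and at least 3 in 1.26%. A further Sgk1 window held a receptor core, 1 window of Tsc22d3 and a pair of further Sgk1 windows held a hexamer each, and the windows of Fkbp5, Pdk4 and Errfi1 held none of these letters. A match describes the letters and is not evidence of binding. Bases after the listed starts and elements farther away were not searched, so these counts do not give all elements near a gene.

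The libraries held 129530270 UMIs over 9258 barcodes in DOX and 97887259 UMIs over 8083 barcodes in DOX plus AMH. The filters left 7298 and 6666 cells, at median depths of 13689 and 10088 UMIs per cell, and 17 barcodes occurred in both libraries. Clusters were named by markers into 10 classes with at least 50 cells in both libraries, called like those cells. Stromal-like cells were the most numerous, with 4455 and 3494 cells. They were followed by smooth muscle-like cells with 901 and 1103, and the smallest class was lymphatic endothelial-like with 75 and 53. A squamous keratin-rich-like class of 7 and 472 cells and an erythroid-like class of 6 and 48 were too small in DOX to compare, and 647 and 244 cells stayed in unnamed clusters. All 8 stromal markers, the uterine genes Hoxa10 and Hoxa11 among them, were present in stromal-like cells of both libraries. Orders and extremes of classes below refer to the 10 compared classes. Levels are given as CPM, UMIs per 1000000 UMIs of that class, with DOX first. The pericyte-like class is not purely pericyte by its markers. Its 7 smooth muscle markers summed to 12137 and 10456 CPM, and its 6 pericyte markers to 2024 and 3002. In smooth muscle-like cells the smooth muscle sums were 15324 and 16522 CPM. Ratios are log2 of the level in DOX plus AMH divided by that in DOX, with an exact 95% interval that covers counting error only. A gene was counted in a class where both libraries together held at least 100 of its UMIs, and called higher or lower at 1.5-fold.

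Across the 10 classes, the 9 genes gave 54 of 90 possible pairs of gene and class with enough UMIs. The level was at least 1.5-fold higher in DOX plus AMH in 28 of the 54 pairs and at least 1.5-fold lower in 0, where over all genes 6.94% of 72026 pairs were higher and 5.74% lower. The ratio was above 0 in 45 pairs, with an interval wholly above 0 in 38 and wholly below 0 in 2, both of them Cebpd. The median ratio of the counted genes was above 0 in 8 of the 9 classes that had any. Because a pair needs enough UMIs in both libraries together, a gene that was high in 1 library alone could enter through that library. The pairs left out appear in the plot of levels. As the 9 genes were chosen with earlier results of these data known, their counts beside all genes are a description only.

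**Figure D1:**
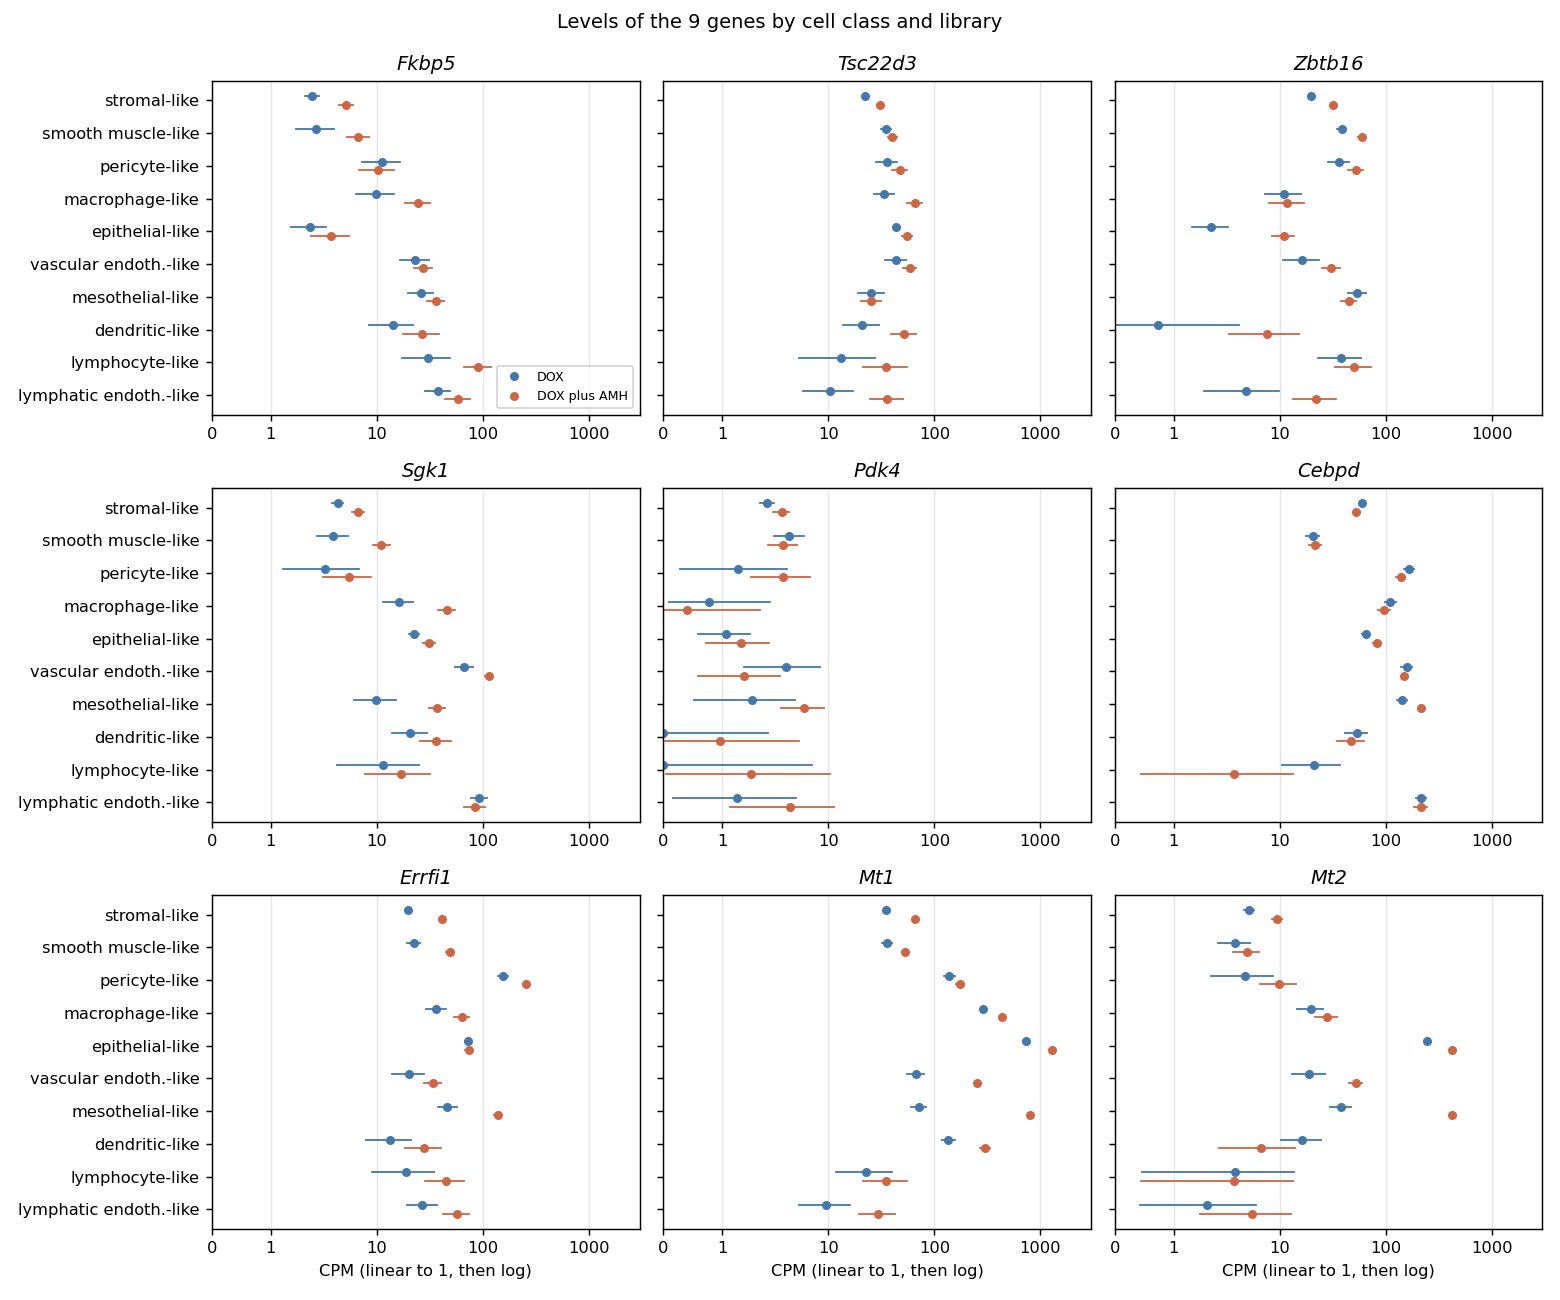
Levels of the 9 genes in 10 cell classes (rows), as CPM on an axis that is linear to 1 and logarithmic above, DOX in blue and DOX plus AMH in orange, with exact 95% counting intervals as bars. Each gene has its own order of classes: Mt1 was highest in epithelial-like cells at 736 and 1291 CPM, Errfi1 in pericyte-like cells at 155 and 254, and Pdk4 stayed below 6 CPM in every class shown.

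Fkbp5 (chr17:28399094-28517527, minus strand) encodes a co-chaperone that lowers the receptor's affinity for hormone and is induced by it, a feedback loop. In stromal-like cells it was at 2.45 CPM in DOX (interval 2.09 to 2.85) and 5.12 in DOX plus AMH, a log2 ratio of 1.06 (0.76 to 1.37). That rests on 166 and 191 UMIs. Among the counted classes it was also 1.5-fold higher in lymphatic endothelial-like cells, at 37.7 against 57.9 CPM (0.62), a size that 5 alternatives put below 1.5-fold, trimmed-mean (TMM) scaling (0.56) and doublets kept (0.58) among them. In vascular endothelium it had 22.9 and 27.1 CPM and in mesothelium 25.9 and 35.7, ratios whose intervals include 0. Its highest level in DOX was that of the lymphatic class. In DOX plus AMH it was that of lymphocyte-like cells, which had 30.3 and 89.1 CPM from 16 and 48 UMIs, too few to be counted. In DOX, 8 of the 9 neighbours in the order of classes had overlapping intervals, so its order is loose beyond low in stromal-like, smooth muscle-like and epithelial-like cells and high in endothelial, mesothelial and lymphoid ones.

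Tsc22d3 (chrX:140539528-140600659, minus strand), also called GILZ, encodes a leucine zipper protein that binds inflammatory transcription factors. It had the smallest ratio of highest to lowest class among the 8 members seen in every class, with levels from 10.3 to 43.8 CPM in DOX and from 25.4 to 65.4 in DOX plus AMH, and all 9 pairs of neighbours overlapped in both libraries. In stromal-like cells it stood at 22.1 and 30.5 CPM (log2 ratio 0.46, 0.35 to 0.58), short of 1.5-fold. Macrophage or monocyte-like cells were its only counted class past that size, with 33.5 against 65.4 CPM (0.96, 0.58 to 1.36). Mesothelial-like cells had 25.5 and 25.4 CPM.

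Zbtb16 (chr9:48654297-48836222, minus strand) encodes the transcription factor PLZF, which in the endometrium is known as a target of glucocorticoids and progesterone. Its level was 19.9 and 32.0 CPM in stromal-like cells (log2 ratio 0.69, 0.58 to 0.80) and 38.3 and 59.0 CPM in smooth muscle-like cells (0.62). The smooth muscle ratio was below 1.5-fold under 7 alternatives, with 0.48 the lowest. The largest ratio was in epithelial-like cells, 2.24 against 10.9 CPM (2.28, 1.64 to 2.95), which rests on 29 and 73 UMIs and on levels below those of the stroma. It was 1.56 with doublets kept and 3.07 with every cell given the same weight. Thinned to 5000 UMIs a cell, 0.386% and 5.13% of those epithelial-like cells held a Zbtb16 UMI, against 0.909% and 3.23% of dendritic-like cells, the class with the lowest CPM of it. The DOX shares are of 259 epithelial-like and 110 dendritic-like cells and too small to tell the classes apart. The DOX plus AMH share has an exact binomial interval of 1.91% to 10.8% that overlaps the dendritic-like one. The dendritic-like class itself stood at 0.738 and 7.64 CPM, and background RNA was not measured. The cells thinned had median depths of 33204 and 36326 UMIs in the epithelial-like class and 10661 and 15682 in the dendritic-like class. In mesothelial-like cells the levels were 53.7 and 44.5 CPM, with an interval that includes 0 (-0.63 to 0.09).

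Cebpd (chr16:15887286-15891031, plus strand) encodes an acute-phase transcription factor, and it was the member whose intervals lay on both sides of 0 in different classes, a difference that was not tested. Stromal-like cells had 59.4 and 51.9 CPM (log2 ratio -0.19, -0.27 to -0.12) and pericyte-like cells 165 and 139 (-0.25, -0.46 to -0.04). Epithelial-like cells had 64.5 and 82.0 CPM (0.35, 0.19 to 0.50) and mesothelial-like cells 143 and 216 (0.60, 0.40 to 0.79). With every cell given the same weight the mesothelial ratio was -0.13, and with cells gated one by one, each by its own markers and not by its cluster, it was 1.21. The pericyte ratio was 0.20 with coarser clusters (Leiden resolution 0.5). In smooth muscle-like, macrophage or monocyte-like, vascular, dendritic-like and lymphatic endothelial-like cells the interval included 0. Among the 10 compared classes, lymphatic endothelial-like cells held the highest level in DOX and almost the same in DOX plus AMH, 214 and 213 CPM. Glial-like cells, too few to compare at 11 and 17, held 939 and 520 CPM. The Cebpd locus overlaps Spidr on the opposite strand, and the use of strand in counting is not stated in the sources used here. Spidr held 5099 and 3572 UMIs in the 2 libraries, against 9533 and 6510 of Cebpd.

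Sgk1 encodes a kinase that acts on ion channels and survival signals. Its highest levels among the 10 compared classes were endothelial, at 66.5 and 114 CPM in vascular endothelial-like cells (log2 ratio 0.78, 0.48 to 1.09) and at 92.5 and 84.1 CPM in lymphatic endothelial-like cells (-0.14), whose interval includes 0. The vascular ratio was 0.09 with every cell given the same weight and 0.52 with cells gated one by one, both below 1.5-fold. The squamous class, not compared, held 120 and 98.5 CPM. The larger ratios were in classes with little of it. Smooth muscle-like cells had 3.85 and 11.0 CPM (1.51, 0.97 to 2.09) and macrophage or monocyte-like cells 16.0 and 45.5 (1.51). In mesothelial-like cells the levels were 9.90 and 37.2 CPM (1.91, 1.23 to 2.65). Stromal-like cells had 4.28 and 6.62 CPM (0.63, 0.38 to 0.88), just past 1.5-fold. It was at least 1.5-fold higher in 5 of its 7 counted classes, as Fkbp5 was in 2 of 4 and Tsc22d3 in 1 of 7.

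Errfi1 (chr4:150853919-150868892, plus strand) encodes MIG6, an inhibitor of the EGF receptor that in the uterus is known to act downstream of progesterone. It was higher in 6 of its 7 counted classes, more than any other member, and the exception was epithelial-like cells with 72.1 and 73.4 CPM (log2 ratio 0.03, -0.13 to 0.18). Stromal-like cells had 19.5 and 40.9 CPM (1.06, 0.96 to 1.17), smooth muscle-like cells 22.2 and 48.9 (1.14) and pericyte-like cells, its highest class, 155 and 254 (0.72, and 0.51 as UMIs per cell without scaling). In mesothelial-like cells the levels were 46.2 and 139 CPM (1.59, 1.28 to 1.92). The stromal, smooth muscle and mesothelial intervals lie wholly above 1.5-fold. Macrophage or monocyte-like cells had 36.3 and 62.9 CPM (0.79), a ratio that was -0.01 with no filter on cells. The vascular endothelial-like ratio, 0.74, was 0.38 with doublets kept and 0.57 with cells gated one by one, both below 1.5-fold.

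Pdk4 (chr6:5483351-5496309, minus strand) encodes a kinase that turns off pyruvate dehydrogenase and so spares glucose. It had the fewest UMIs of the 9 genes and was counted in stromal-like cells only, at 2.64 and 3.62 CPM (log2 ratio 0.46, 0.12 to 0.79). Elsewhere it ranged from 0 to 5.90 CPM. Dendritic-like and lymphocyte-like cells of DOX held 0 UMIs, which at a limit of 3 counts allows up to 2.21 and 5.68 CPM (the exact 95% bars of the plot of levels reach 2.72 and 6.98), and at this depth no difference could be read from those classes.

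Mt1 and Mt2 encode metallothioneins, small cysteine-rich proteins that bind zinc and other metals and scavenge radicals. The largest ratios of all 54 pairs were theirs, in mesothelial-like cells, named for the lining of the outer uterine surface. The 8 stromal markers summed to 12755 and 9730 CPM in this class, and the 6 mesothelial markers to 2490 and 1881. Mt1 stood there at 71.2 and 792 CPM (log2 ratio 3.48, 3.24 to 3.72) and Mt2 at 37.7 and 425 CPM (3.49, 3.17 to 3.84), an 11.1-fold and an 11.3-fold difference. Over the alternatives run, these ratios ranged from 2.76 to 4.58 and from 2.75 to 5.42. Cell by cell, thinned to 5000 UMIs, 21.7% of 83 DOX cells and 72.9% of 129 DOX plus AMH cells held an Mt1 UMI, and before thinning 47.1% and 84.6%. In lymphatic endothelial-like cells, the class with the least Mt1, the thinned shares were 1.75% and 12.5% of 57 and 32 cells. Median depths of the thinned cells were 18089 and 20035 UMIs in the mesothelial-like class and 10398 and 9485 in the lymphatic endothelial-like class.

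The pair was also at least 1.5-fold higher in epithelial-like, vascular endothelial-like and stromal-like cells. Macrophage or monocyte-like cells, next to epithelial-like cells in Mt1 level in DOX, were short of that size. They had 290 and 434 CPM of Mt1 (log2 ratio 0.58) and 19.5 and 27.6 of Mt2 (0.50). Epithelial-like cells had 736 and 1291 CPM of Mt1 (log2 ratio 0.81, 0.77 to 0.85) and 243 and 421 CPM of Mt2 (0.79). Vascular endothelial-like cells had 67.1 and 255 CPM of Mt1 (1.92) and 18.9 and 51.9 of Mt2 (1.45). The vascular Mt2 ratio was 0.72 with doublets kept and 2.55 with every cell given the same weight. Stromal-like cells had 35.3 and 65.8 CPM of Mt1 (0.90, 0.82 to 0.98) and 5.10 and 9.49 of Mt2 (0.90, 0.68 to 1.11). The stromal Mt1 ratio was 1.57 at Leiden resolution 0.5, and that of Mt2 0.54 with no filter on cells. The interval of Mt1 was above 0 in all 8 classes in which it was counted, from 0.32 in pericyte-like cells upward. The pericyte ratio was -0.09 at Leiden resolution 0.5 and 0.57 with the clusters given equal make-up. Gm45774 overlaps Mt2 on the opposite strand, with 6 and 10 UMIs in the 2 libraries against 5257 and 7360 of Mt2.

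**Figure D2:**
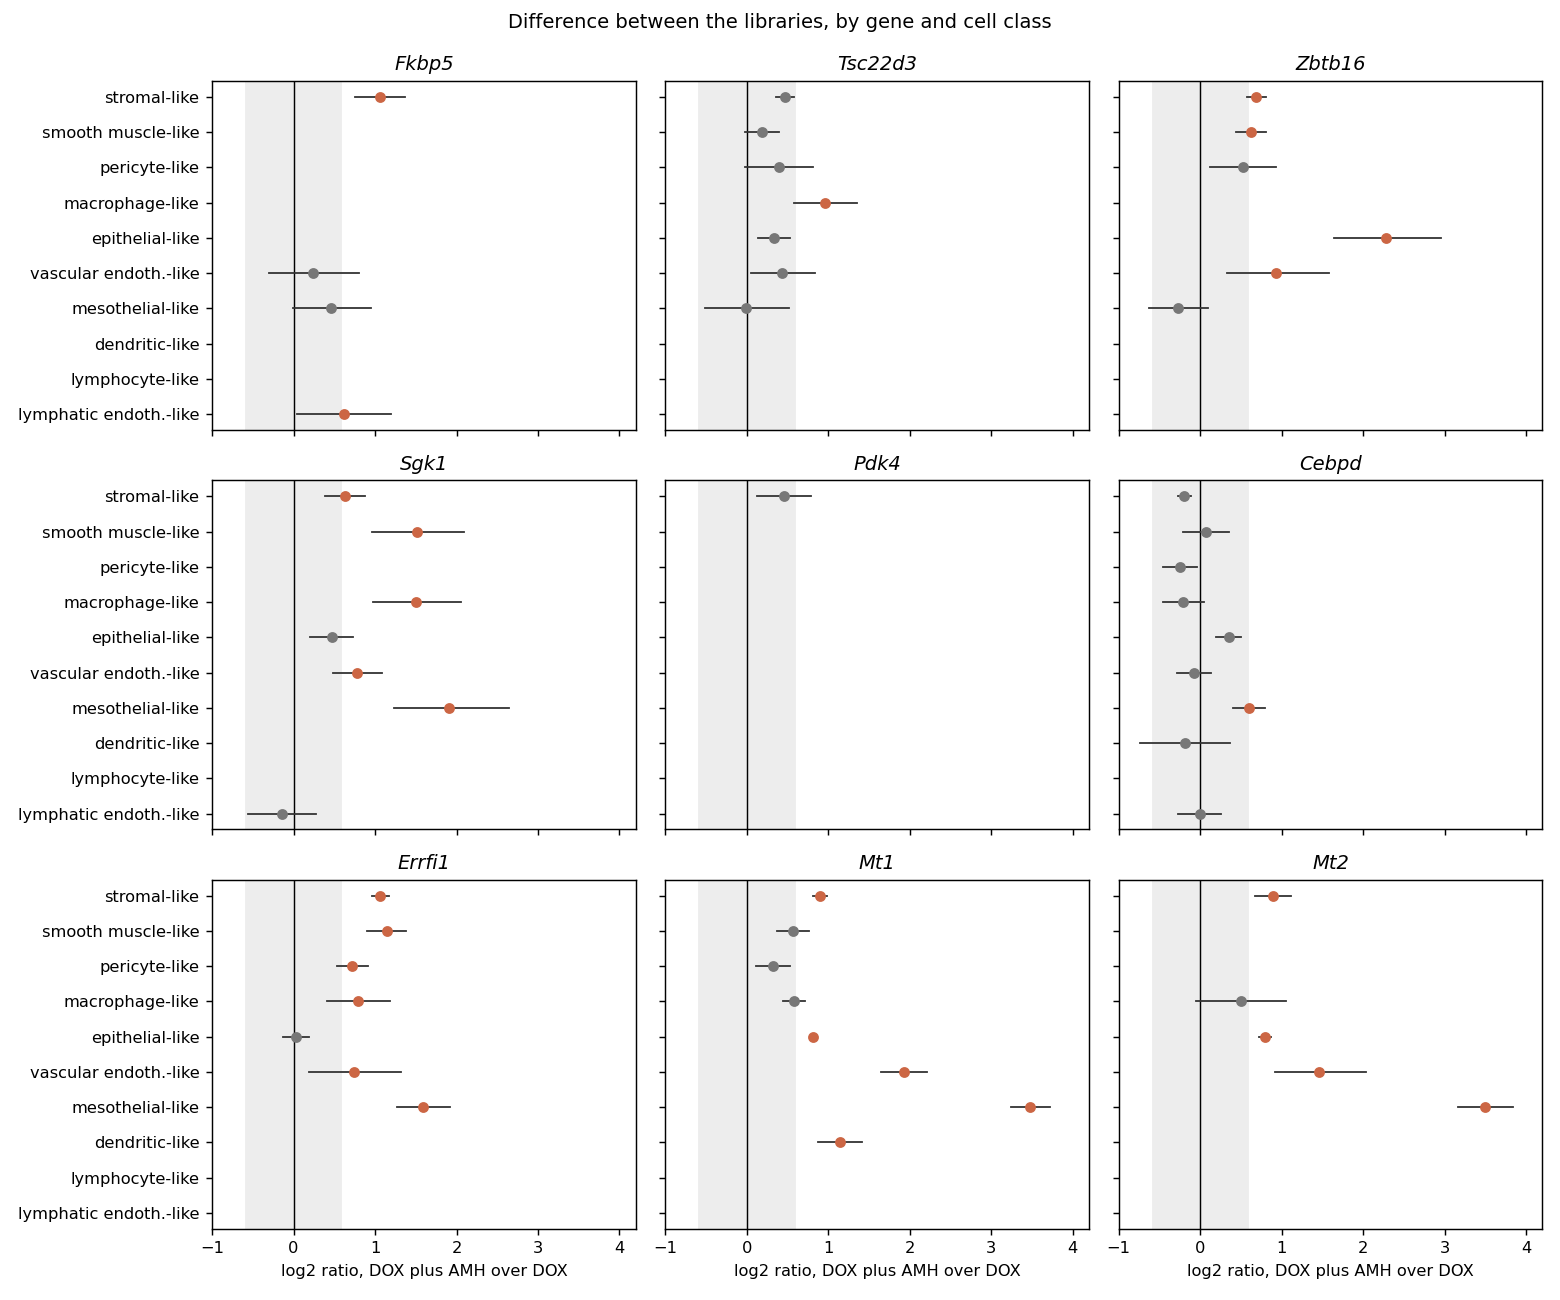
Log2 ratio of DOX plus AMH over DOX for each gene and each class where it was counted, with exact 95% counting intervals; the grey band spans 1.5-fold either way and orange points lie at or above it on the higher side. Mt1 and Mt2 in mesothelial-like cells lie farthest to the right, at 3.48 and 3.49, and Cebpd is the gene with intervals on both sides of 0.

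Other cells' transcripts moved with the group too. The 7 markers of squamous keratin-rich cells summed to 4.32 and 54.7 CPM in stromal-like cells, with 7 of 7 at least 1.5-fold higher, and to 5.66 and 359 CPM in mesothelial-like cells, with 7 of 7 higher. Over the 10 classes they ranged from 0 to 92.2 CPM in DOX and from 37.1 to 175 CPM in DOX plus AMH outside the mesothelial-like class. The least abundant marker was Dsg3 or Trp63 in each class, and all 7 stood at 0 in the vascular and lymphatic endothelial-like cells of DOX. The squamous cells of DOX plus AMH held 317 CPM of Mt1, 112 of Mt2, 98.5 of Sgk1 and 65.9 of Errfi1. If all squamous marker RNA in mesothelial-like cells came from such cells, it would bring 7.85 CPM of Mt1, 2.44 of Sgk1 and 1.64 of Errfi1, against 792, 37.2 and 139 CPM measured. The same sum for stromal-like cells is 1.20 CPM of Mt1 against 65.8 and 0.373 of Sgk1 against 6.62. In DOX it is 0.029 CPM of Sgk1 against 4.28. The stromal Sgk1 ratio, just past 1.5-fold, was not recalculated without these amounts. The 8 columnar epithelial markers, keratin genes among them, mark the class richest in Mt1. They summed to 15.8 and 14.3 CPM in stromal-like cells and to 1059 and 818 CPM in mesothelial-like cells. Foxa2 was the lowest in both classes. Whether mesothelial-like cells make these transcripts themselves was not tested. In mesothelial-like cells the macrophage markers summed to 145 and 29.8 CPM, with 1 of 9 higher. The dendritic markers there summed to 107 and 451 CPM, with 3 of 8 higher. In vascular endothelial-like cells the macrophage markers summed to 20.65 and 104 CPM, with 8 of 9 higher. In lymphatic endothelial-like cells they summed to 12.3 and 265 CPM, again with 8 of 9 higher. Adipocyte markers summed to 48.8 and 625 CPM in vascular endothelial-like cells, with 6 of 6 higher. The 5 erythroid markers ranged over the 10 classes from 5.48 to 30.3 CPM in DOX and from 33.0 to 13464 in DOX plus AMH, with Alas2 the lowest throughout. The squamous sums assume the average profile of all squamous cells of DOX plus AMH, which was not checked. The part of other cells' RNA in the results, squamous RNA included, was not tested.

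In stromal-like cells, 6 of the 9 genes were at least 1.5-fold higher in DOX plus AMH, namely Fkbp5, Errfi1, Mt1, Mt2, Zbtb16 and Sgk1, and 0 were lower. Over all 14211 counted genes of that class 8.75% were higher and 4.00% lower. The members' median log2 ratio was 0.69 beside 0.15 over all genes. Without cluster 0, described with the stromal clusters, 7 were higher and the median was 0.74. Under TMM scaling, which shifts every stromal ratio by -0.20 and the median of all genes to -0.05, the count was 4 and the members' median 0.49, and over all genes 3.98% were then higher and 6.59% lower. TMM shifts in the other classes ran from -0.15 to 0.14, and over all pairs 25 of 54 were then higher, beside 5.05% higher and 6.62% lower over all genes. Counted as UMIs per cell without scaling, which shifts every stromal ratio by -0.51, 0 of the 9 were higher and 1, Cebpd, was lower by 1.5-fold, beside 1.39% higher and 22.2% lower over all genes, and Tsc22d3 and Pdk4 turned to -0.05 and -0.06. Stromal-like cells were shallower in DOX plus AMH, with a median of 10031 UMIs against 14631, and whether that is less RNA per cell or a shallower library cannot be told apart.

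**Figure D3:**
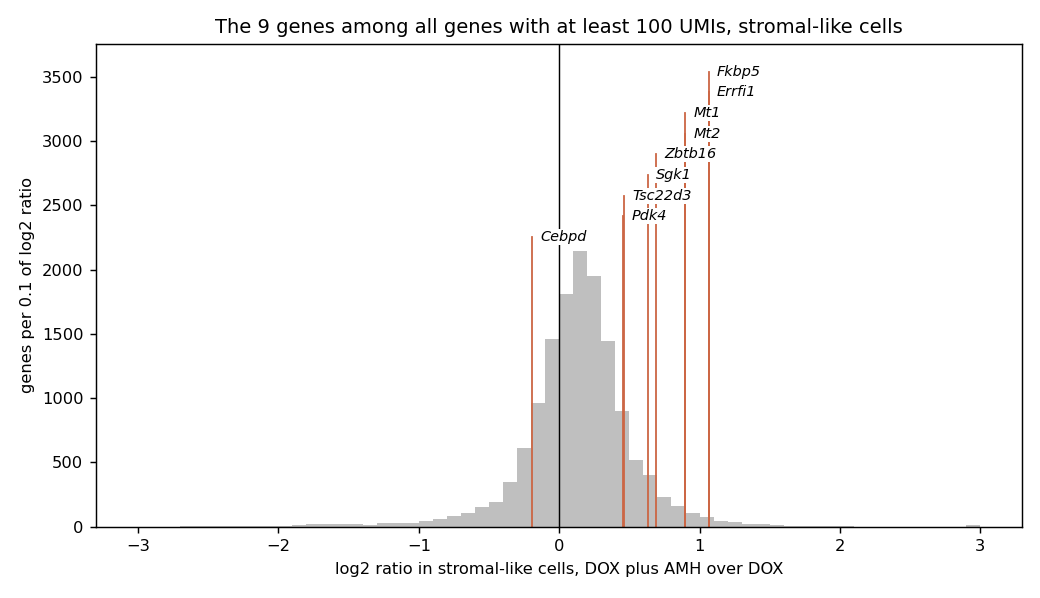
Number of genes per 0.1 of log2 ratio (DOX plus AMH over DOX) in stromal-like cells, for the 14211 genes with at least 100 UMIs, with the 9 members as orange lines; values beyond 3 either way stand in the end bars. The bulk of genes centres on 0.15, 8 members lie to its right between 0.46 and 1.06, and Cebpd lies at -0.19.

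The other classes gave smaller sets, and 0 members were lower by 1.5-fold in any of them. In smooth muscle-like cells 3 of 6 counted members were higher, Sgk1, Errfi1 and Zbtb16 (all genes 7.18% higher and 3.54% lower). In macrophage or monocyte-like cells it was 3 of 6, Sgk1, Tsc22d3 and Errfi1 (10.5% and 7.76%). In epithelial-like cells it was 3 of 7, Zbtb16, Mt1 and Mt2 (4.81% and 4.67%). Mt1 was just short of that size in muscle and macrophages, at log2 ratios of 0.57 and 0.58.

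The vascular endothelium had 5 of 8 counted members higher, Mt1, Mt2, Zbtb16, Sgk1 and Errfi1 (all genes 4.25% higher and 3.26% lower), of which Sgk1 and Errfi1 passed 1.5-fold under some settings only. Mesothelial-like cells also had 5 of 8, the metallothioneins, Sgk1, Errfi1 and Cebpd (7.33% and 14.1%), and the highest median, 1.09 beside -0.16 over all genes. The remaining classes had few members with enough UMIs. Pericyte-like cells had 1 of 5, Errfi1 (5.65% and 3.23%), dendritic-like cells 1 of 2, Mt1 (8.70% and 9.59%), and lymphatic endothelial-like cells 1 of 3, Fkbp5 (4.74% and 6.44%). In lymphocyte-like cells 0 members reached 100 UMIs (7.15% and 8.05%).

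Within the stroma, cluster 9, led by Col14a1, Mgp and other matrix genes, had the highest levels of Fkbp5, Zbtb16, Sgk1, Cebpd, Errfi1 and Mt1 in DOX plus AMH. It held 827 and 543 cells, and 5 of its 8 counted members were at least 1.5-fold higher, beside 10.5% of all genes counted there. Zbtb16 stood there at 20.9 and 57.8 CPM (log2 ratio 1.47, 1.22 to 1.72), Errfi1 at 40.2 and 99.1, Fkbp5 at 9.62 and 23.6 and Mt1 at 111 and 198 (0.84). Cluster 5 had 4 of 5 counted members higher, beside 9.53% of all genes, among them Mt1 at 43.9 and 114 CPM (1.38). Cluster 0 had 3 of 5 higher (all genes 6.84%), cluster 2 had 2 of 5 (7.54%) and cluster 3 had 4 of 7 (8.17%). Cebpd was lower by 1.5-fold in clusters 0 and 3, as were 1.49% and 2.60% of all genes. Cluster 1, led by Cxcl14, had 1 of 4 higher (4.53%) with a median of -0.06. Cluster 0 was led by the immunoglobulin genes Igkc, Ighm and Jchain, genes of plasma cells. It had 8 of 8 stromal markers detected, none of them among its 10 leading genes, and it is kept in the class.

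Cebpd divided the same clusters. It was higher in cluster 9, 105 against 142 CPM (log2 ratio 0.44, 0.30 to 0.57), level in cluster 5 (0.05) and lower in clusters 0 and 3, at 44.8 against 25.5 CPM (-0.81) and 65.9 against 39.5 (-0.74). Cluster 2 lay between them at 45.6 and 34.9 CPM (-0.39). The ratio of the whole class, -0.19, was -0.06 without cluster 0. Cluster 19, of dividing cells, held 143 and 15 cells and is too thin in DOX plus AMH to compare.

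**Figure D4:**
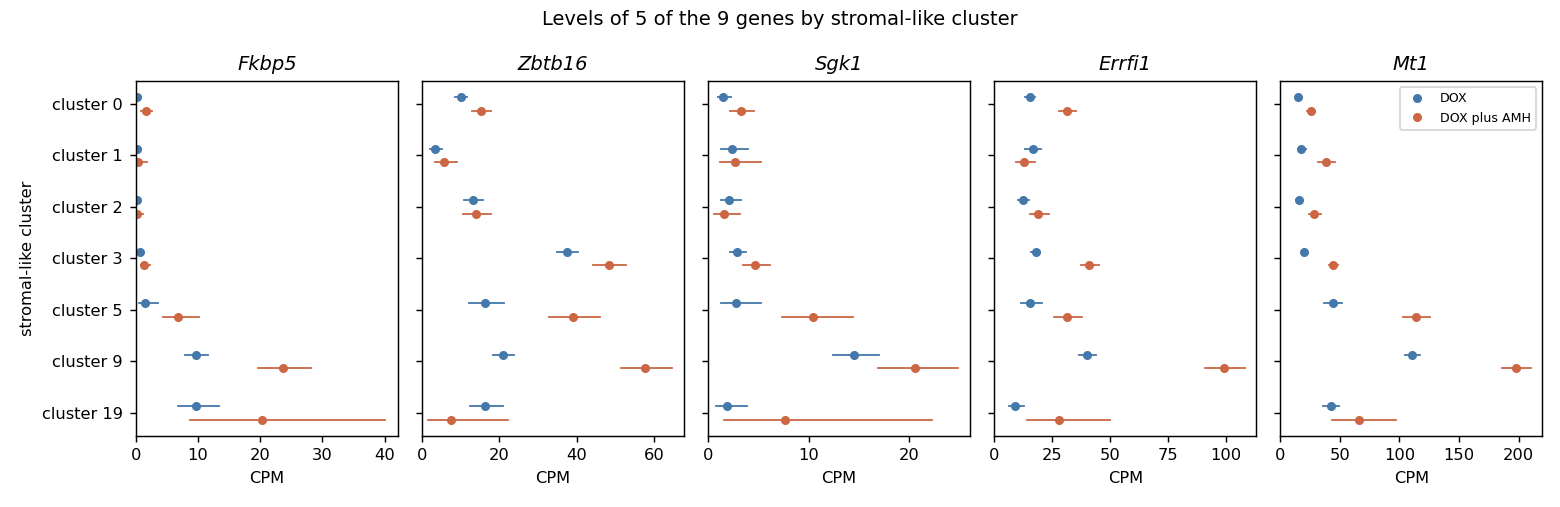
CPM of Fkbp5, Zbtb16, Sgk1, Errfi1 and Mt1 in the 7 stromal-like clusters (rows, by cluster number), DOX in blue and DOX plus AMH in orange, with exact 95% counting intervals as bars. Cluster 9 has the highest Errfi1 and Mt1 in both libraries, at 40.2 and 99.1 CPM and at 111 and 198 CPM, and cluster 19 has wide bars in DOX plus AMH, where it held 15 cells.

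Smooth muscle-like cells split in a similar way. Cluster 8, led by Actg2 and Cnn1, held 472 and 538 cells, and cluster 7, led by Tnni2 and Acta1, held 429 and 565. In cluster 8 Zbtb16 was at 19.2 and 45.8 CPM (log2 ratio 1.26), Errfi1 at 29.4 and 74.9 (1.35) and Sgk1 at 5.72 and 17.8 (1.64). In cluster 7 the same genes were at 59.4 and 73.4 (0.31), 14.2 and 20.2 (0.51) and 1.80 and 3.47 CPM (0.95, with an interval that includes 0). The pericyte-like class split as well, with Errfi1 at 38.8 and 142 CPM in cluster 11 (1.87) and at 199 and 298 in cluster 16 (0.59). Cluster 16 was the larger, with 148 and 240 cells against 79 and 122. It was named by its leading genes, and 1 of those 10 was a pericyte marker.

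At the level of single cells, the members were sparse. With each cell thinned to 5000 UMIs, a stromal-like cell held a UMI of 0.704 of the 9 genes on average in DOX and of 0.930 in DOX plus AMH, with a median of 1 in both. None of the 9 was seen in 49.3% and 42.0% of these cells, after 128 and 262 shallower cells had been left out. Smooth muscle-like cells averaged 0.710 and 0.935, those of the vascular endothelium 1.31 and 2.01, and those of the mesothelium 1.28 and 2.56. In mesothelial-like cells 22.9% and 5.43% held none, and 0% and 6.98% held 5 or more. The sum of Mt1 and Mt2 was 1.07 and 6.47 UMIs per thinned mesothelial-like cell, and that of the other 7 genes 1.70 and 2.29.

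**Figure D5:**
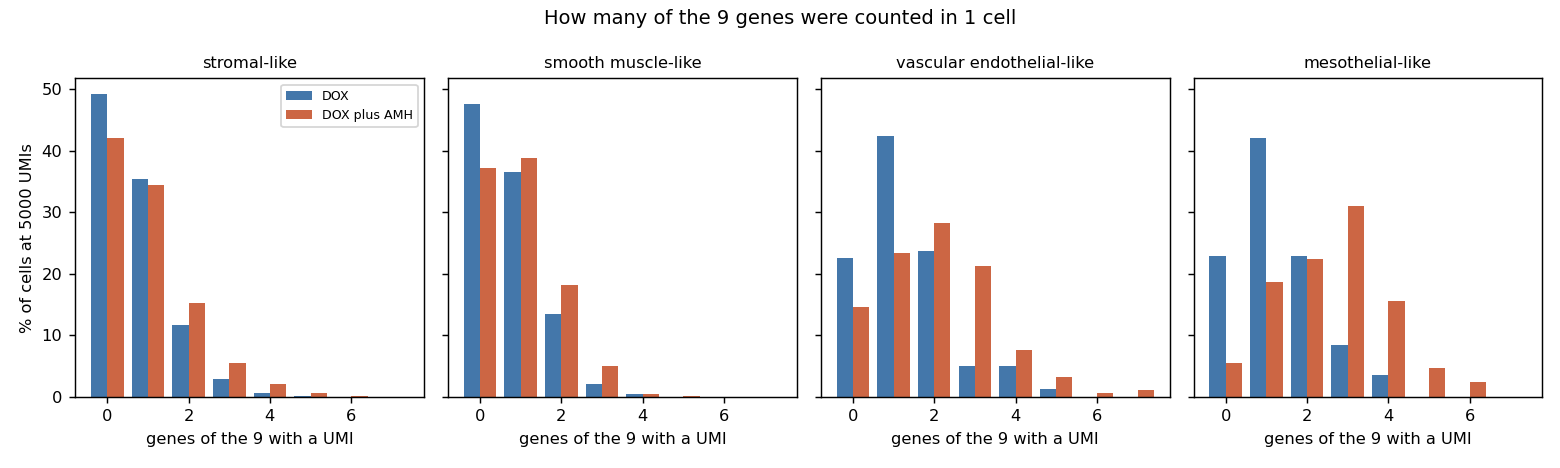
Share of cells (percent, y axis) by how many of the 9 genes had at least 1 UMI (x axis) after thinning each cell to 5000 UMIs, in 4 classes, DOX in blue and DOX plus AMH in orange. In mesothelial-like cells the mean is 1.28 in DOX and 2.56 in DOX plus AMH, and in stromal-like cells 49.3% and 42.0% of cells stand at 0.

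Other genes of the pathway were read in stromal-like cells from lists. Of 25 further glucocorticoid-induced genes, 24 had enough UMIs. Of these, 7 were higher and 2 lower at the same fold, and their median log2 ratio was 0.34 beside 0.15 over all genes. The highest were Sult1a1, a sulfotransferase, at 2.09 and 4.37 CPM (1.06), and Hif3a, a hypoxia factor that dampens its relatives, at 2.46 and 5.04 (1.03). The lowest were Lcn2, an acute-phase lipocalin, at 1.87 and 0.590 CPM (-1.67), and Gadd45g, a stress gene, at 111 and 61.8 (-0.85). The list as a whole therefore sits above all genes by less than the 9 do, and holds genes on both sides.

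The receptor and the enzymes that handle its hormone were measured as well. Nr3c1 itself was at 137 and 156 CPM in stromal-like cells (log2 ratio 0.18, 0.14 to 0.23), close to the median of all genes. Of the 14 genes of receptor, chaperones and steroid handling, all counted, 2 were higher and 1 lower. The 2 were Hsd11b1, which regenerates active glucocorticoid, at 1.68 and 5.31 CPM (1.66, 1.32 to 2.00), and Nr3c2, the mineralocorticoid receptor, at 15.9 and 32.7 (1.04, 0.92 to 1.16). The 1 was Hsd11b2, which inactivates glucocorticoid, at 138 and 45.2 CPM (-1.61, -1.68 to -1.53). The HSP90 gene Hsp90ab1 was next lowest, at 2389 and 2334 CPM (-0.03).

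Inflammatory genes that glucocorticoids are known to repress differed in direction between classes. In stromal-like cells 4 of 9 counted were lower and 0 higher (median log2 ratio -0.58), with the chemokine gene Cxcl10 at 29.3 and 13.2 CPM (-1.15) and Ccl5 at 1.40 and 0.751 (-0.90). The highest 2 were Mmp3, at 11.3 and 16.7 CPM (0.57), and Cxcl1, at 1.36 and 1.88 (0.47). In macrophage or monocyte-like cells 6 of 11 were lower and 2 higher, with a median of -0.97. In mesothelial-like cells 7 of 10 were higher and 1 lower, with a median of 1.72, in the class where the metallothioneins differed most.

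Immediate-early and dissociation genes, which answer to tissue handling, were read as well. Of 19, 18 were counted in stromal-like cells, 6 higher and 0 lower, with a median log2 ratio of 0.47. Hspa1b was at 21.6 and 58.6 CPM (1.44) and Hspa1a at 28.8 and 53.2 (0.88), while Egr2 (-0.31) and Socs3 (-0.13) had the lowest ratios. The list's median was lowest in dendritic-like cells, at 0.07, and highest in mesothelial-like cells, at 0.77, where 11 of 17 were higher and 0 lower. Their part in the members' values was not tested. Neighbouring programmes that share single members had few genes past 1.5-fold in stromal-like cells. Of the counted metal response genes 0 of 3 were higher. They were Slc30a1, at a log2 ratio of 0.57, Slc39a10 (-0.02) and the gene of the factor itself, Mtf1 (0.27). Of the NRF2 genes 0 of 7 were higher and 1 lower. Of the fasting genes 1 of 12 was higher, Fabp4 at 2.05 and 8.10 CPM (1.98), of the Cebp family 0 of 5, Cebpb lying at 102 and 66.7 CPM (-0.61), and of the osmotic genes 0 of 8. Fabp4 is known from fat cells and capillaries, and the adipocyte markers summed to 1.5 and 10.2 CPM in these cells, with 5 of 6 higher and Lep the lowest.

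Likeness to other genes was measured as Pearson's r of log2(CPM + 1) over 20 points, 10 classes in each of 2 libraries, among 4047 genes. The points share libraries and depth, so r is a description only. Mt2 was most like Mt1 (r = 0.84), then Por (0.84). Mt2 itself had too few UMIs in most points to stand among the 4047 genes, and Mt1 was most like Fos (0.78), Pla2g4a (0.78) and Tns3 (0.76). Fkbp5 was most like Tmem30a (0.87), Pde4b (0.87) and Tap2 (0.87), and Cebpd most like Anxa5 (0.91), Myo1c (0.87) and Leprot (0.87). For Zbtb16 the 3 were Dctn6 (0.84), Fam214a (0.84) and Arhgap10 (0.82), for Sgk1 Acly (0.87), Adam10 (0.86) and Map3k3 (0.86), and for Pdk4 Pcdh7 (0.85), Kat6b (0.83) and Meis2 (0.83). Tsc22d3 was most like Aamp (0.70), Hspa1a (0.69) and Rsrp1 (0.68), and among the 3 genes most like Errfi1 were Psme4 (0.74) and Ahcyl1 (0.72). Between other pairs of members r ran from -0.38 for Zbtb16 and Sgk1 to 0.63 for Tsc22d3 and Mt1, so the 9 genes did not share 1 profile over the cell classes.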

How the data were processed

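The data are 10x Genomics 3' v3.1 libraries of mouse uterus, 1 per group. As deposited, each matrix gives unnormalised UMI counts for every gene in every barcode, made with Cell Ranger 7.0.0 on mm10 per the submitters' processing notes. Barcodes with at least 1000 UMIs, 500 genes and at most 15% mitochondrial UMIs passed. Scrublet's highest scores were removed as doublets at a fixed 0.8% per 1000 barcodes (485 and 399), after its own threshold had been seen to call almost none. Cells were clustered in scanpy 1.11.5 (2000 variable genes, 30 components, 15 neighbours, Leiden resolution 1), without the members and list genes. Clusters were named from fixed markers by a scoring rule set after seeing the data. UMIs were summed per class, scaled to CPM, and compared with exact Poisson and binomial-split intervals. The ratio intervals were run on simulated Poisson counts, the model they assume. That checks the calculation only, because the simulation had no spread between animals, cells or libraries. With 1 library per group there was no test. Named genes were all 9 members, the 2 highest and 2 lowest counted genes of each list in stromal-like cells, and each member's 3 most like genes, of which a few are not reported here. Nr3c1, the cluster values and the setting without cluster 0 were chosen after their values were seen. Alternatives covered scaling (edgeR 4.0.16 TMM, DESeq2 1.42.0 size factors), filters, doublets, resolution, gating cell by cell, thresholds and thinning. The members and lists were chosen with earlier results of these data known.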

Additional observations from a re-analysis of the deposited data

Results flagged for a closer look

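Cebpd was picked out because its counting intervals lay on opposite sides of 0 in different cell classes of the same pair of libraries. The log2 ratio of DOX plus AMH over DOX was -0.19 in stromal-like and -0.25 in pericyte-like cells, and 0.35 in epithelial-like and 0.60 in mesothelial-like cells. With 1 library per group the difference between classes was not tested.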

How the results depend on the processing

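No paired analysis was possible because each group is 1 library. The stromal-like median log2 ratio of the members, 0.69, was 0.49 with TMM scaling, 0.48 with median-of-ratios size factors, 0.18 as UMIs per cell, 0.87 with every cell weighted equally and 0.83 with doublets kept. The 6 members higher there became 0 as UMIs per cell and 2 at a 2-fold threshold, beside 1.92% of all genes at 2-fold. The 28 higher pairs became 13 at 2-fold, beside 1.65% of all pairs, and 50 of 88 with no minimum of UMIs, beside 20.1%. The median number of members per stromal-like cell, 1 in both libraries, was 0 in both when cells were thinned to 2000 UMIs and 0 in DOX under the stricter cell filter. Cebpd in mesothelial-like cells turned to -0.13 with every cell weighted equally, and Errfi1 in macrophage or monocyte-like cells to -0.012 with no cell filter. The cause was not tested. Errfi1 in stromal-like cells from 0.55 to 1.18 and Sgk1 in smooth muscle-like cells from 1.26 to 1.52 over the alternatives run. Gating cells one by one kept 97.4% to 98.4% of stromal-like but 14.5% to 16.9% of pericyte-like cells in their class. Of mesothelial-like cells it kept 56.3% in DOX and 53.7% in DOX plus AMH. Resolution 0.5 left 9 and gating one by one 8 of the 10 classes to compare.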

Other observations

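Clusters left unnamed also held the members. Cluster 6, led by the ciliary genes Tmem212 and Ccdc153, had 193 cells in DOX and 40 in DOX plus AMH. Its Mt1 stood at 24.7 and 1895 CPM and its Mt2 at 4.49 and 150 CPM, while its Tsc22d3 stood at 16.6 and 17.8 CPM. Cluster 10, led by Cfd and Il6, had 274 and 145 cells, with Mt1 at 286 and 631 CPM and Fkbp5 at 18.1 and 38.9 CPM. Cluster 10 reached the marker score of a class, but stayed unnamed because more of its leading genes were markers of another class. Both clusters stand outside every count given for the named classes.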
